A study of Homo sapiens with 9 samples.

Results

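The G2/M and mitotic genes described here are 34 genes whose products carry a cell from late G2 through mitosis to the separation of the daughter cells. They were the rows of the deposited count table named MKI67, TOP2A, CCNB1, CCNB2, CCNA2, CDK1, BUB1, BUB1B, BUB3, MAD2L1, AURKA, AURKB, PLK1, CDC20, CDC25B, CDC25C, UBE2C, BIRC5, INCENP, CENPA, CENPE, CENPF, TPX2, KIF11, KIF20A, KIF23, KIF2C, NUSAP1, FOXM1, TTK, DLGAP5, HMMR, PRC1 or ECT2. All 34 were found once each among the 58735 named rows of the table, and all 34 passed the filter on low counts that left 15242 genes to test.

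The series measured total RNA by RNA sequencing in 9 libraries of MDA-MB-231, a human triple-negative breast cancer cell line with mesenchymal features. All libraries came from cells under hypoxia for 6 h, per the series title, so no library shows these genes in normal oxygen. The genotype label was sgL1 for 6 libraries and sgCtrl for 3. The labels do not spell these names out; sgL1 is read here as a guide RNA against UFL1, the ligase that attaches the ubiquitin-like protein UFM1 to its targets, and sgCtrl as a control guide. The series title speaks of knockdown and its design text of knockout of UFL1 or UFM1, no library is labelled for UFM1, and the labels name neither the nuclease nor any selection of clones. The sgL1 libraries are shown as numbers 1-3 and 4-6; this split is by library number alone, since the labels do not say what separates the sets or whether replicates came from separate cultures, so p-values measure the spread between these libraries, which may be technical.

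UFL1 itself, the gene that checks the labels, had 27.4, 25.4 and 25.4 CPM (counts scaled to library size, with libraries set level by the trimmed mean of M-values) in sgCtrl, 15.2, 12.9 and 12.9 CPM in sgL1 1-3 and 22.9, 20.0 and 21.2 CPM in sgL1 4-6. Its RNA was lower in every sgL1 library than in every sgCtrl library (pooled log2 fold change -0.57, edgeR adjusted p = 0.126; -0.93 and 4.27e-10 in sgL1 1-3; -0.28 and 0.0302 in sgL1 4-6), and lower in sgL1 1-3 than in 4-6 by 0.65 on the log2 scale (edgeR adjusted p = 5.57e-05). A frameshift edit can leave RNA in place, so these levels are no measure of UFL1 protein. Libraries held 15420073 to 17038409 counts on named genes. VIM and CD44, which mark mesenchymal-like breast cancer lines, averaged 1253 and 763.7 CPM. The list of markers of such lines also held FN1, SPARC, KRT18, KRT8, EGFR and CAV1, and 1 of the 8 averaged below 1 CPM. The summed level of the 8 markers of such lines was lower in every sgL1 library (3954 to 4129.7 CPM) than in every sgCtrl library (4163 to 4240.1 CPM), and of 7 tested 3 fell and 1 rose in the pooled comparison. Of 7 luminal markers 2 averaged below 1 CPM, ESR1 (0.371 CPM) and CDH1 (0.111 CPM), and the others did not. Of 7 leukocyte markers 5 averaged below 1 CPM, and 2, CD3E among them, had no count in any library. Of 7 fibroblast markers 5 averaged below 1 CPM, and 1, LUM, had no count in any library. The summed level of 7 leukocyte markers was 3.01 to 3.33 CPM in sgCtrl and 3.79 to 5.44 CPM in sgL1, that of 7 fibroblast markers 11.6 to 14.5 and 15.9 to 20.6 CPM, that of 5 endothelial markers 9.99 to 13.3 and 14.0 to 15.8 CPM, and that of 7 luminal markers 40.5 to 43.5 and 43.3 to 50.7 CPM. The summed level of the 13 mitochondrially encoded mRNAs was 32295, 30868 and 27609 CPM in sgL1 1-3, 33326 to 33875 CPM in sgL1 4-6 and 32932 to 34011 CPM in sgCtrl, so all 3 libraries of sgL1 1-3 were below the other 6; in sgL1 1-3, 3 of the 13 fell and 0 rose. The part of these markers in the results below was not tested.

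Entry into mitosis is driven by CDK1 bound to cyclin A or cyclin B and is opened by CDC25 phosphatases and the kinases PLK1 and AURKA. The spindle checkpoint (BUB1, BUB1B, BUB3, MAD2L1, TTK) then holds the anaphase-promoting complex inactive until every kinetochore is attached, after which CDC20 and UBE2C let that complex destroy securin and cyclin B. Most of these genes are transcribed in waves that peak in G2 and mitosis. In proliferating cells their promoters are bound by MuvB complexes with B-MYB and FOXM1 through CHR elements, and by NF-Y through CCAAT boxes, and in resting cells the DREAM complex represses many of them through the same CHR elements. Because their RNA rises and falls with the cycle, a bulk measurement reads the share of cells in G2 and mitosis together with the RNA per such cell, and fewer such cells and less RNA per cell cannot be told apart here.

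The promoters of 5 genes that fell in sgL1 and of CCNB2, whose promoter is a textbook case of this layout, are shown because the same letters recur in them. Each run is the 130 bases before a transcription start in RefSeq (GRCh38.p14, plus strand, written 5′ to 3′). Capitals mark TTTGAA, the CHR-type hexamer, and CCAAT, the NF-Y-type box, on either strand (TTCAAA and ATTGG on the other), with overlapping matches all counted.
HMMR, chr5:163460502-163460631: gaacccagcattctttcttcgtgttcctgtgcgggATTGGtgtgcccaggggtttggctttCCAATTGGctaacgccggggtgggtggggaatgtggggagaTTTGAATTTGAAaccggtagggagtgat
ECT2, chr3:172750596-172750725: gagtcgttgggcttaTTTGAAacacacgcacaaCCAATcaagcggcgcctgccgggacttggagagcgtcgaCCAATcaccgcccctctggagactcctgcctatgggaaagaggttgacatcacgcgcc
KIF23, chr15:69414219-69414348: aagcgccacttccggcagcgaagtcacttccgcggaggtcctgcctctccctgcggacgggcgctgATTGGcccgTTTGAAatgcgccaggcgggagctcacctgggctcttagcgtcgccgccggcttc
CDC20, chr1:43358851-43358980: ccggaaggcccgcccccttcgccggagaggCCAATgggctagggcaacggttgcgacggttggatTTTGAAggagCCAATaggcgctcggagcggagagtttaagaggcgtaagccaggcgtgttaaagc
PLK1, chr16:23678759-23678888: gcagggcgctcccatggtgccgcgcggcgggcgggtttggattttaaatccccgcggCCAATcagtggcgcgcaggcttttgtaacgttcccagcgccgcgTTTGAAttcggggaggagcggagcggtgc
CCNB2, chr15:59105016-59105145: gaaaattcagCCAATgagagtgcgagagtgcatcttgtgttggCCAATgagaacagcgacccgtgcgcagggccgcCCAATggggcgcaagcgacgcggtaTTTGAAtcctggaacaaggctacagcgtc

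In HMMR the CHR-type hexamer stood in tandem at -28 and -22 from the start, and a CCAAT box overlapped its own reverse at -69 and -66. In PLK1 a CCAAT box at -73 preceded a hexamer at -29. In CCNB2 the CCAAT boxes at -120, -87 and -54 were 33 bases apart and a hexamer followed at -29. CDC20 had its hexamer at -65, between boxes at -100 and -55. KIF23 had a reversed box at -64 and a hexamer at -55. In the printed run of ECT2 the hexamer at -115 lay upstream of boxes at -97 and -58. Its window held a further box at -2, cut by the end of the run and so not marked, and a further hexamer 35 bases past the start. The start shown for ECT2 was picked because its window held both motifs. Another RefSeq start of ECT2 had hexamers at -242 and -182 and no box. GENCODE 29 starts the gene spans of these 6 genes further upstream, so between 26 bases (CDC20) and all 130 bases (HMMR and PLK1) of a run lie inside the annotated span.

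RefSeq windows from 250 bases before to 50 bases after a start were matched for 27 of the 34 genes, in 36 windows. UBE2C, BUB3, BIRC5, FOXM1, AURKA, TTK and TPX2 had no entry. TTTGAA was found in 22 of the 36 windows (61.1%) and in 15.2% of all 35116 windows of this length. CCAAT was found in 28 of 36 (77.8%) and in 34.6% of all windows. Both were found in 20 of 36 (55.6%) and in 5.90% of all windows. Counted by gene, with a match in any window, 18 of the 27 genes held both motifs, against 7.26% of all 27305 genes. CENPE and KIF2C held neither. A match is a string of letters and not a measured binding site.

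**Figure D1:**
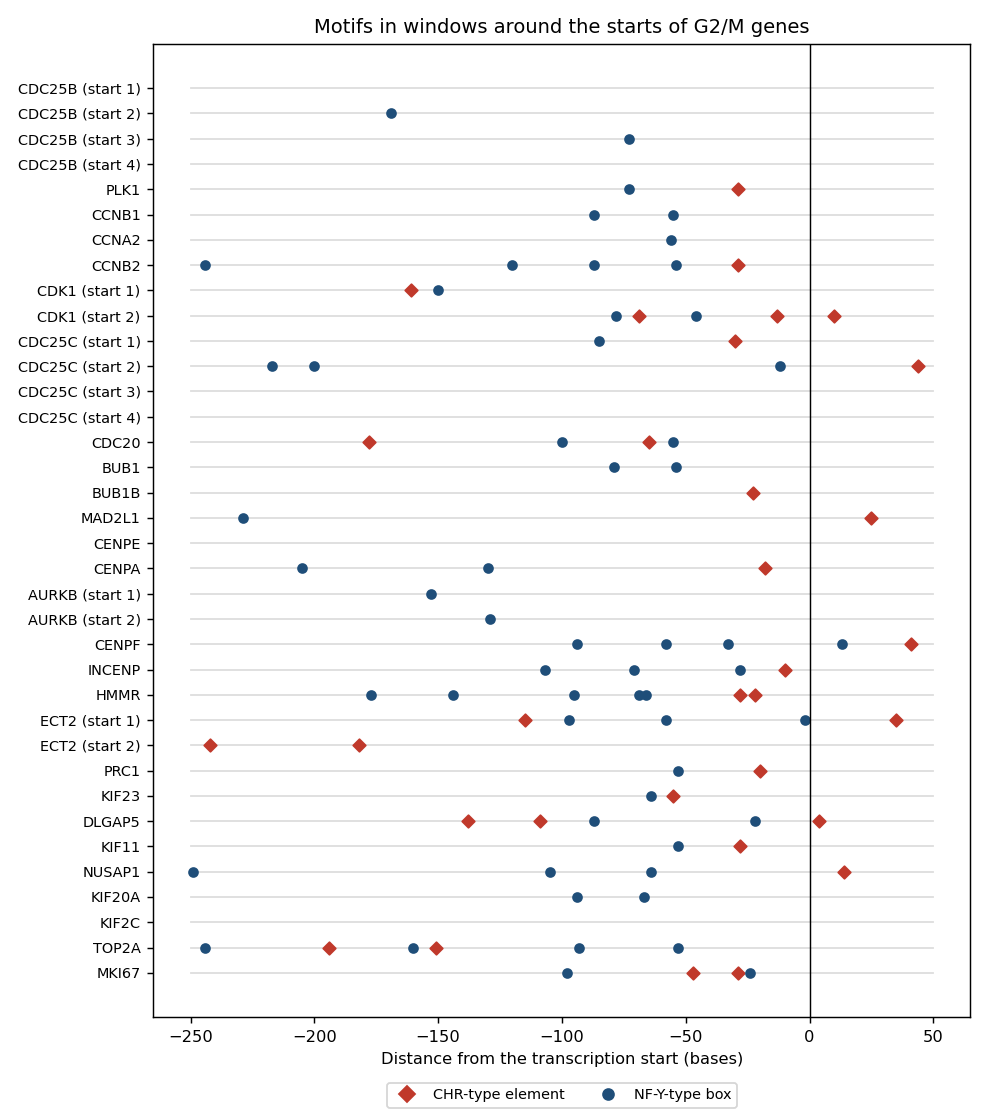
Positions of the CHR-type hexamer (red diamonds) and the NF-Y-type box (blue circles), on either strand, in the 36 RefSeq windows of the 27 G2/M genes with an entry. The horizontal axis is the distance from the transcription start in bases, the vertical line marks the start, and each grey line is a window; most boxes lie upstream of the start, and 20 of the 36 windows hold both motifs.

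Of the 11 matched genes that fell in the pooled comparison below, 7 held both motifs, and of the 16 matched genes that did not pass its test, 11 did. Over the tested genes outside the 34, 571 held both motifs and had a median log2 fold change of -0.02, with 7.36% lower and 4.73% higher. The other 9740 matched genes had a median of 0.00, with 4.08% lower and 6.31% higher. The other G2/M genes described below were not removed from these sets, and their part in the values was not tested.

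Levels between genes are compared only as FPKM, the authors' length-scaled values, here as means ± SD over the 3 sgCtrl libraries. The most abundant of the 34 were CCNB1, cyclin B1 (133 ± 1.80 FPKM), CDC20 (131 ± 2.69), TPX2, which activates Aurora A on the spindle (126 ± 0.902), the DNA topoisomerase TOP2A (125 ± 4.63) and UBE2C (104 ± 9.16). CCNB1 and CDC20, and likewise TPX2 and TOP2A, differed by less than the larger of their SDs. The lowest were HMMR (7.44 ± 0.493), NUSAP1 (5.78 ± 0.414), CDC25C (5.75 ± 0.437) and PRC1 (0.349 ± 0.101 FPKM). PRC1, which bundles the central spindle, stood far below the other genes, on 19 to 41 counts per library. In GENCODE 29, 57.6% of its exonic bases are shared with AC068831.7 on the same strand, whose row had 5.20 to 8.50 CPM. NUSAP1 shares 62.2% of its exonic bases with AC087721.2, whose row had no count in any library. FOXM1 shares 15.9% with ITFG2 and PLK1 11.6% with AC008870.3, both on the other strand. Whether counting used the strand, and how reads in shared bases were assigned, is stated in no source used here; the levels of PRC1 and NUSAP1 are uncertain.

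**Figure D2:**
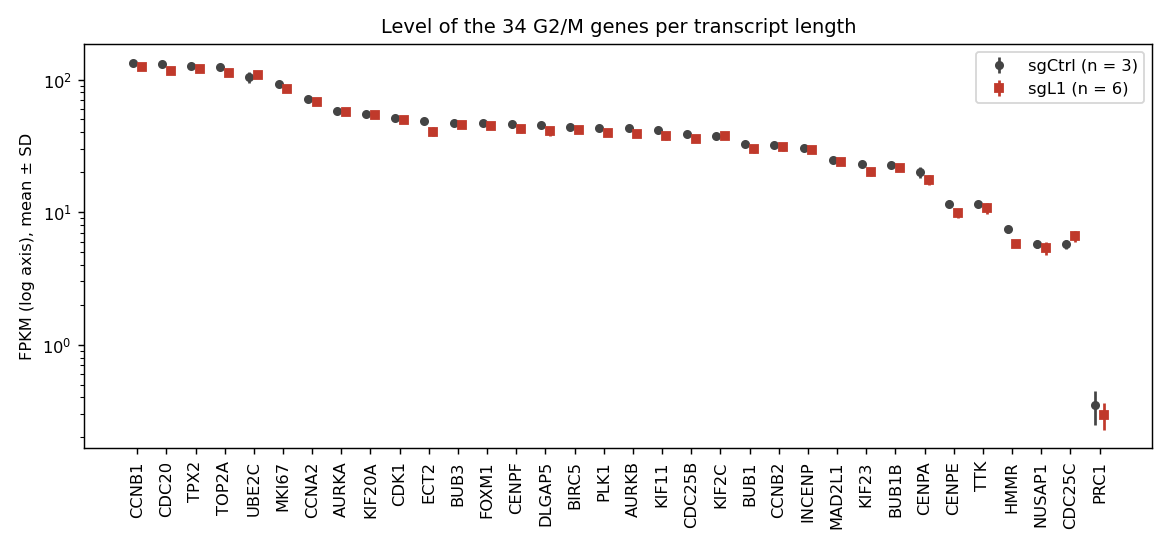
FPKM of the 34 G2/M genes on a log axis, ordered by the sgCtrl mean, as means (circles, sgCtrl, n = 3; squares, sgL1, n = 6) with bars for the SD. The sgCtrl means run from 133 FPKM (CCNB1) to 0.349 FPKM (PRC1), and on this scale the means of both groups lie close together for nearly all genes.

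The pooled comparison asked how the 6 sgL1 libraries differed from the 3 sgCtrl libraries. Of the 34 genes, 11 fell and 0 rose at an edgeR adjusted p under 0.05, where 3.98% of all tested genes fell and 5.52% rose. DESeq2 and limma-voom gave the same counts. At an unadjusted edgeR p under 0.05, 16 of the 34 genes were lower and 1 was higher. Of all 15242 genes, 3272 had such a p in either direction. The falls were small: the median log2 fold change of the 34 was -0.11, against 0.00 for all 15242 genes, and 32 of the 34 values were below zero. HMMR changed most among the genes called and fell by 23.2%. The sgL1 and sgCtrl libraries did not overlap for 10 genes, all lower in sgL1, where 6.4% of all tested genes were lower with no overlap.

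Summed over the 34 genes, the level was 7592, 7703 and 7757 CPM in sgCtrl, 7088, 6910.0 and 6973 CPM in sgL1 1-3 and 7399.6, 7189 and 7272 CPM in sgL1 4-6. The 3 sets did not overlap, with sgCtrl highest and sgL1 1-3 lowest. The sum weighs the genes with the most counts, MKI67 and TOP2A, above the others. The number of genes called depended on single libraries: 4 fell without sgCtrl 2, 5 without sgCtrl 3 and 7 without sgCtrl 1. The share of all tested genes that fell was also smaller in these fits, at 2.27%, 2.47% and 2.57% in that order. On the log2(FPKM + 1) scale 3 fell (CDC25B, CDC20 and HMMR), where 0.961% of all genes fell.

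**Figure D3:**
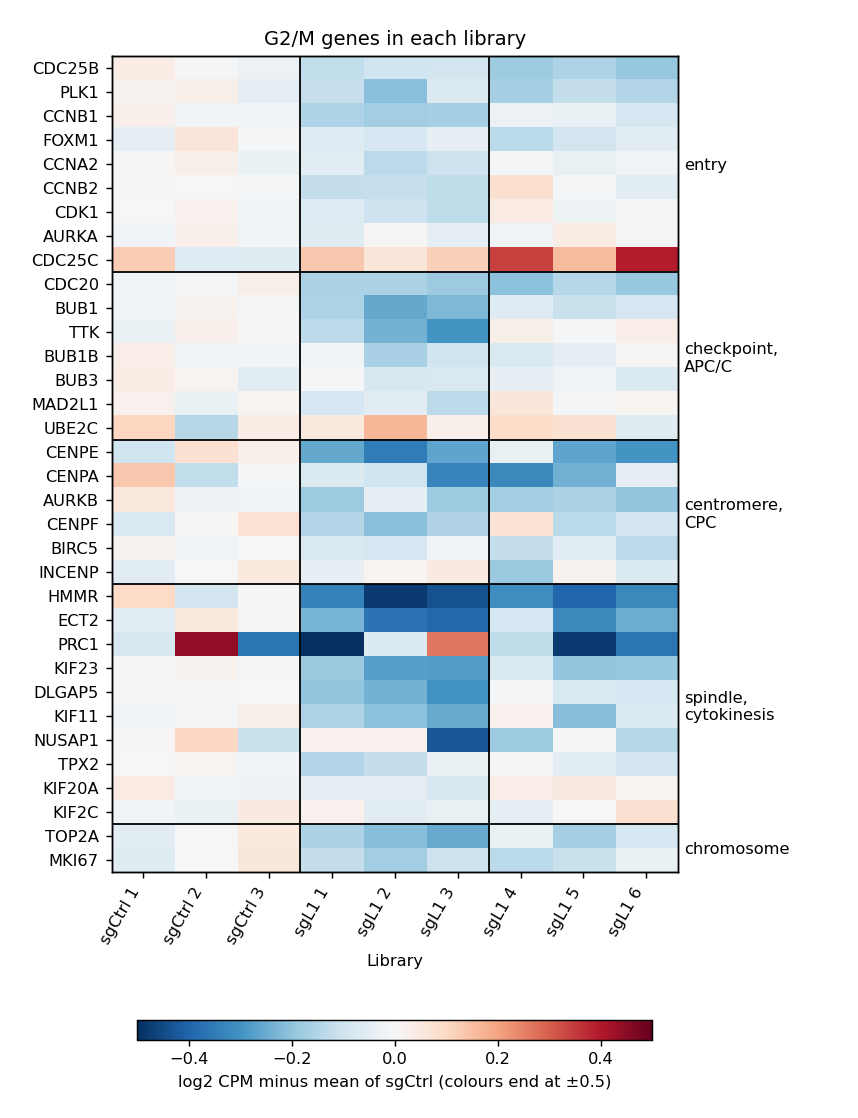
Level of the 34 G2/M genes in each of the 9 libraries as log2 CPM minus the mean of the 3 sgCtrl libraries (colour, blue lower and red higher), with vertical lines between sgCtrl, sgL1 1-3 and sgL1 4-6 and horizontal lines between roles. HMMR and ECT2 are blue in all 6 sgL1 libraries, TTK and DLGAP5 are bluer in sgL1 1-3, and CDC25C is red in sgL1 4 and 6; PRC1 scatters in every set.

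Against sgCtrl, each set of sgL1 libraries was also compared alone, in a fit of all 9 libraries; the sets share the 3 controls. In sgL1 1-3, 14 of the 34 genes fell and 0 rose (median -0.13), where 6.92% of all genes fell and 8.39% rose, and 22 had no overlap with the controls, all lower, where 14.9% of all genes did. DESeq2 gave the same counts. Where 4123 of all 15242 genes had an unadjusted edgeR p under 0.05 in either direction, 22 of the 34 were lower and 0 higher. In sgL1 4-6, 8 fell and 1, CDC25C, rose (median -0.08), where 4.68% of all genes fell and 5.92% rose, and 12 lay below all controls, where 12.8% of all genes did. Without sgCtrl 2, 4 of the 34 genes fell in sgL1 4-6, where 3.50% of all genes fell. The genes are described below by role, with the pooled change first and then that of each set.

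Among the 9 genes of mitotic entry, 2 fell in the pooled comparison, CDC25B and PLK1, and 0 rose; 2 fell in sgL1 1-3 (CCNB1 and PLK1) and 2 in sgL1 4-6 (CDC25B and PLK1). PLK1, the polo kinase that acts from entry to cytokinesis (chr16:23677656-23690367, plus strand), had 210.3, 212 and 201 CPM in sgCtrl, 192, 179.6 and 198 CPM in sgL1 1-3 and 185, 191 and 188 CPM in sgL1 4-6. No sgL1 library reached the lowest control. It fell by 0.14 in the pooled comparison (log2 fold change -0.14 ± 0.04 SE, edgeR adjusted p = 0.0312), by 0.13 in sgL1 1-3 (adjusted p = 0.0249) and by 0.14 in sgL1 4-6 (adjusted p = 0.0163). CDC25B, a phosphatase that removes the inhibitory phosphates of CDK1, had 175, 169 and 167 CPM in sgCtrl, 156, 159 and 159.9 CPM in sgL1 1-3 and 151, 153 and 149 CPM in sgL1 4-6. All 6 sgL1 libraries were below all controls, and the log2 fold change was -0.14 ± 0.04 (SE, edgeR adjusted p = 0.0301). In sgL1 4-6 alone it was -0.17 ± 0.04 (SE, adjusted p = 0.00246) and in sgL1 1-3 alone -0.10 ± 0.04 (SE, adjusted p = 0.0785). The pooled PLK1 call was lost without any 1 of the sgCtrl libraries (adjusted p of 0.0513 to 0.175), and that of CDC25B without any 1 of them or without sgL1 5 or 6 (0.0566 to 0.173). In sgL1 1-3 PLK1 missed the threshold without sgL1 2, sgCtrl 1 or sgCtrl 2 (0.0832 to 0.162), and in sgL1 4-6 without sgL1 4, sgL1 6, sgCtrl 1 or sgCtrl 2 (0.0548 to 0.0863).

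CCNB1, cyclin B1 (chr5:69167010-69178245, plus strand), had 349, 340.2 and 340.3 CPM in sgCtrl, 309, 304 and 306 CPM in sgL1 1-3 and 336, 335 and 324 CPM in sgL1 4-6. The 3 sets formed separate steps, with sgL1 1-3 lowest. In sgL1 1-3 CCNB1 fell by 0.16 (log2 fold change -0.16 ± 0.04 SE, edgeR adjusted p = 8.39e-04), while the pooled value was -0.11 ± 0.04 (SE, adjusted p = 0.111) and that of sgL1 4-6 -0.05 ± 0.04 (SE, adjusted p = 0.454). Its partner kinase CDK1 had 203, 207 and 200.1 CPM in sgCtrl, 195, 189 and 186 CPM in sgL1 1-3 and 209, 199.9 and 202 CPM in sgL1 4-6, and the groups overlapped. Its pooled difference of -0.05 ± 0.04 (SE, edgeR adjusted p = 0.589) had a 95% interval of -0.13 to 0.04. For CCNA2, CCNB2, AURKA and FOXM1, the forkhead factor of G2/M transcription, the pooled 95% intervals were -0.14 to 0.02, -0.16 to 0.05, -0.10 to 0.07 and -0.16 to 0.00, in that order. CCNB2 was 82.9 to 83.7 CPM in sgL1 1-3, below its sgCtrl libraries at 90.2 to 91.0 CPM, and 87.3 to 95.8 CPM in sgL1 4-6 (adjusted p = 0.0948 for sgL1 1-3).

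CDC25C, another CDK1-activating phosphatase (chr5:138285265-138338355, minus strand), went the other way. It had 21.1, 18.5 and 18.5 CPM in sgCtrl, 21.2, 20.2 and 21.0 CPM in sgL1 1-3 and 24.5, 21.5 and 25.4 CPM in sgL1 4-6. The 3 libraries of sgL1 4-6 lay above all controls, while sgL1 1-3 lay within the range of the controls or just above it. CDC25C rose in sgL1 4-6 (log2 fold change 0.30 ± 0.09 SE, edgeR adjusted p = 0.0241), and measured 0.10 ± 0.09 (SE, adjusted p = 0.523) in sgL1 1-3 and 0.20 ± 0.09 (SE, adjusted p = 0.163) pooled. Its call rests on 289 to 410 counts per library and was lost without sgL1 4, sgL1 6, sgCtrl 2 or sgCtrl 3 (0.0962 to 0.139). In GENCODE 29, 8.78% of its exonic bases overlap FAM53C on the other strand, at 91.7 to 110.8 CPM, whose part was not tested.

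Of the 7 genes of the spindle checkpoint and the anaphase-promoting complex, CDC20 and BUB1 fell pooled and 0 rose; CDC20, BUB1 and TTK fell in sgL1 1-3, and CDC20 fell in sgL1 4-6. CDC20, which both activates the anaphase-promoting complex and is the target of the checkpoint (chr1:43358955-43363203, plus strand), had 264, 268 and 274 CPM in sgCtrl, 241, 241 and 237 CPM in sgL1 1-3 and 233, 243 and 235 CPM in sgL1 4-6. Every sgL1 library was below the lowest control, and the sets of sgL1 overlapped each other. CDC20 fell by 11.3% pooled (log2 fold change -0.17 ± 0.04 SE, edgeR adjusted p = 0.00225). It fell by 10.8% in sgL1 1-3 (adjusted p = 0.00132), and fell by 11.7% in sgL1 4-6 (adjusted p = 6.09e-04). It kept its pooled call without any single library and on each FPKM scale.

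BUB1, a checkpoint kinase at the kinetochore, had 198, 203 and 199.7 CPM in sgCtrl, 180.1, 168 and 171 CPM in sgL1 1-3 and 192, 185 and 189 CPM in sgL1 4-6. All sgL1 libraries were below the controls and sgL1 1-3 were below 4-6. The pooled log2 fold change was -0.15 ± 0.04 (SE, edgeR adjusted p = 0.035), that of sgL1 1-3 -0.21 ± 0.04 (SE, adjusted p = 1.70e-04) and that of sgL1 4-6 -0.09 ± 0.04 (SE, adjusted p = 0.194). The pooled call was lost without sgL1 1, 2 or 3 or without any 1 of the sgCtrl libraries (0.0501 to 0.166). TTK, the MPS1 kinase that starts checkpoint signalling (chr6:80003887-80042527, plus strand), had 51.7, 53.8 and 53.1 CPM in sgCtrl, 48.3, 44.9 and 43.0 CPM in sgL1 1-3 and 54.0, 52.5 and 54.2 CPM in sgL1 4-6. The sgL1 1-3 libraries were below all others and the sgL1 4-6 libraries were within the range of the controls or just above it. TTK fell in sgL1 1-3 (log2 fold change -0.22 ± 0.06 SE, edgeR adjusted p = 0.0102), a call lost without sgL1 3 or sgCtrl 2 (0.0819 and 0.0544), and measured 0.02 ± 0.06 (SE, adjusted p = 0.913) in sgL1 4-6. For the checkpoint proteins BUB1B, BUB3 and MAD2L1 the pooled 95% intervals were -0.16 to 0.03, -0.13 to 0.03 and -0.13 to 0.06. UBE2C, the ubiquitin-conjugating partner of the complex, was 122.0 to 145.0 CPM in sgCtrl and 129.3 to 151.2 CPM in sgL1, with a pooled difference of 0.06 ± 0.05 (SE, adjusted p = 0.604).

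Of the 6 genes of the centromere, kinetochore and chromosomal passenger complex, CENPE and AURKB fell pooled and 0 rose; CENPE and CENPF fell in sgL1 1-3, and CENPE and AURKB in sgL1 4-6. CENPE, the kinesin that brings chromosomes to the spindle equator (chr4:103105806-103198409, minus strand), had 103, 116 and 112 CPM in sgCtrl, 92.2, 86.4 and 91.8 CPM in sgL1 1-3 and 107, 91.8 and 89.6 CPM in sgL1 4-6. Only sgL1 4 overlapped the controls; the other 5 sgL1 libraries lay below them. CENPE fell pooled (log2 fold change -0.24 ± 0.06 SE, edgeR adjusted p = 0.00528). In sgL1 1-3 it fell by 18.3% (adjusted p = 7.69e-04), and it fell by 12.7% in sgL1 4-6 (adjusted p = 0.0274). Without sgCtrl 2 the pooled adjusted p was 0.0799, and the call in sgL1 4-6 was lost without sgL1 5, sgL1 6, sgCtrl 2 or sgCtrl 3 (0.112 to 0.175).

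AURKB, the kinase of the chromosomal passenger complex, had 101, 95.7 and 96.1 CPM in sgCtrl, 86.1, 94.5 and 86.0 CPM in sgL1 1-3 and 86.8, 87.5 and 85.4 CPM in sgL1 4-6. The sgL1 libraries were all below the controls, with sgL1 2 close to the lowest of them. The pooled log2 fold change was -0.15 ± 0.05 (SE, edgeR adjusted p = 0.0368), lost without sgL1 1, 5 or 6 or any 1 of the sgCtrl libraries (0.0621 to 0.205). In sgL1 4-6 it was -0.17 ± 0.05 (SE, adjusted p = 0.0157), lost without sgL1 6 or sgCtrl 1 (0.0744 and 0.106). The other members of that complex, BIRC5 (survivin) and INCENP, had pooled 95% intervals of -0.16 to 0.01 and -0.14 to 0.06. CENPF, a large kinetochore protein, was 469.0 to 489.3 CPM in sgL1 1-3 and 512.9 to 569.2 CPM in sgCtrl and fell in sgL1 1-3 (log2 fold change -0.17 ± 0.05 SE, edgeR adjusted p = 0.0131). That call was lost without sgL1 1, sgL1 2, sgCtrl 2 or sgCtrl 3 (0.0505 to 0.0838). CENPA, the centromeric histone, was 36.5 to 43.6 CPM in sgCtrl and 31.6 to 38.4 CPM in sgL1, and its pooled difference was -0.19 ± 0.08 (SE, adjusted p = 0.136).

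Of the 10 genes of the spindle, its motors and cytokinesis, HMMR, ECT2 and KIF23 fell pooled and in each set, 0 rose, and KIF11 and DLGAP5 fell in sgL1 1-3 as well. HMMR, a hyaluronan receptor that also helps to organise spindle poles (chr5:163460203-163491945, plus strand), had 31.6, 27.7 and 29.3 CPM in sgCtrl, 23.4, 21.1 and 21.8 CPM in sgL1 1-3 and 23.8, 22.4 and 23.6 CPM in sgL1 4-6. Every control was above every sgL1 library, and the sgL1 sets overlapped each other. HMMR fell by 23.2% pooled (log2 fold change -0.38 ± 0.07 SE, edgeR adjusted p = 6.90e-04). It fell by 25.2% in sgL1 1-3 (adjusted p = 2.84e-04), and fell by 21.2% in sgL1 4-6 (adjusted p = 0.0031). These calls held without any single library, on 340 to 495 counts per library.

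ECT2, the exchange factor that activates RhoA at the cleavage furrow (chr3:172750682-172821474, plus strand), had 261, 280.0 and 272 CPM in sgCtrl, 231, 210.1 and 207 CPM in sgL1 1-3 and 255, 217 and 228 CPM in sgL1 4-6. The groups did not overlap, and sgL1 4 was the sgL1 library nearest the controls. ECT2 fell by 17.2% pooled (log2 fold change -0.27 ± 0.05 SE, edgeR adjusted p = 8.39e-04). It fell by 20.4% in sgL1 1-3 (adjusted p = 1.19e-04), and fell by 14.0% in sgL1 4-6 (adjusted p = 0.00771, or 0.0502 without sgCtrl 2). KIF23, the kinesin of centralspindlin, which recruits ECT2 (chr15:69414246-69448427, plus strand), had 152, 154 and 151 CPM in sgCtrl, 134, 126 and 125 CPM in sgL1 1-3 and 145, 133 and 133 CPM in sgL1 4-6. It showed the same order, with all sgL1 libraries below the controls and sgL1 4 the highest of them. KIF23 fell by 12.8% pooled (log2 fold change -0.20 ± 0.05 SE, edgeR adjusted p = 0.0045). It fell by 15.7% in sgL1 1-3 (adjusted p = 7.25e-05), and fell by 9.93% in sgL1 4-6 (adjusted p = 0.0189). The last of these was lost without sgL1 5, sgL1 6, sgCtrl 1 or sgCtrl 2 (0.0565 to 0.122). The pooled calls of ECT2 and KIF23 held without any single library but missed the threshold on the log2(FPKM + 1) scale over all genes (0.0652 and 0.0535).

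DLGAP5, which stabilises spindle microtubules (chr14:55148112-55191678, minus strand), had 167, 167 and 167 CPM in sgCtrl, 146, 142 and 135 CPM in sgL1 1-3 and 166, 158 and 157 CPM in sgL1 4-6. The controls lay within 1 CPM of each other, sgL1 4-6 lay just below them and sgL1 1-3 well below. It fell in sgL1 1-3 (log2 fold change -0.24 ± 0.04 SE, edgeR adjusted p = 3.90e-05) and measured -0.06 ± 0.04 (SE, adjusted p = 0.463) in sgL1 4-6 and -0.15 ± 0.05 (SE, adjusted p = 0.0744) pooled. KIF11, the motor that pushes spindle poles apart, had 201, 202 and 207 CPM in sgCtrl, 183, 176 and 171 CPM in sgL1 1-3 and 206, 176 and 194 CPM in sgL1 4-6. It fell in sgL1 1-3 (log2 fold change -0.20 ± 0.05 SE, edgeR adjusted p = 0.00131) and had a pooled value of -0.14 ± 0.05 (SE, adjusted p = 0.0713). The pooled 95% intervals of TPX2, of KIF20A, a cytokinesis kinesin, and of KIF2C, which depolymerises microtubules, were -0.15 to 0.00, -0.10 to 0.07 and -0.10 to 0.08. Those of NUSAP1 and PRC1, at -0.31 to 0.09 and -0.77 to 0.29, were the widest of the 34.

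Both genes of chromosome structure fell pooled and in sgL1 1-3. TOP2A, which untangles sister chromatids, had 779.6, 810.0 and 836 CPM in sgCtrl, 724, 697 and 679 CPM in sgL1 1-3 and 791, 720.4 and 762 CPM in sgL1 4-6. The sgL1 1-3 libraries were below all controls and sgL1 4 overlapped them. TOP2A fell by 9.86% pooled (log2 fold change -0.15 ± 0.04 SE, edgeR adjusted p = 0.0195) and by 13.4% in sgL1 1-3 (adjusted p = 3.61e-05), and measured -0.09 ± 0.04 (SE, adjusted p = 0.0883) in sgL1 4-6. MKI67, the Ki-67 antigen that coats mitotic chromosomes and marks cycling cells, had 1139, 1189 and 1235 CPM in sgCtrl, 1091, 1052 and 1105 CPM in sgL1 1-3 and 1079.8, 1099 and 1159 CPM in sgL1 4-6. Only sgL1 6 overlapped the controls. Its pooled log2 fold change was -0.11 ± 0.04 (SE, edgeR adjusted p = 0.0457), that of sgL1 1-3 -0.13 ± 0.03 (SE, adjusted p = 0.00422) and that of sgL1 4-6 -0.09 ± 0.03 (SE, adjusted p = 0.0659). The pooled TOP2A call was lost without sgCtrl 2 or 3 (0.101 and 0.172) and that of MKI67 without sgL1 1, 2 or 5 or sgCtrl 2 or 3 (0.0534 to 0.316). MKI67 also missed the threshold with no expression filter (0.0515), and in sgL1 1-3 without sgCtrl 3 (0.0714).

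**Figure D4:**
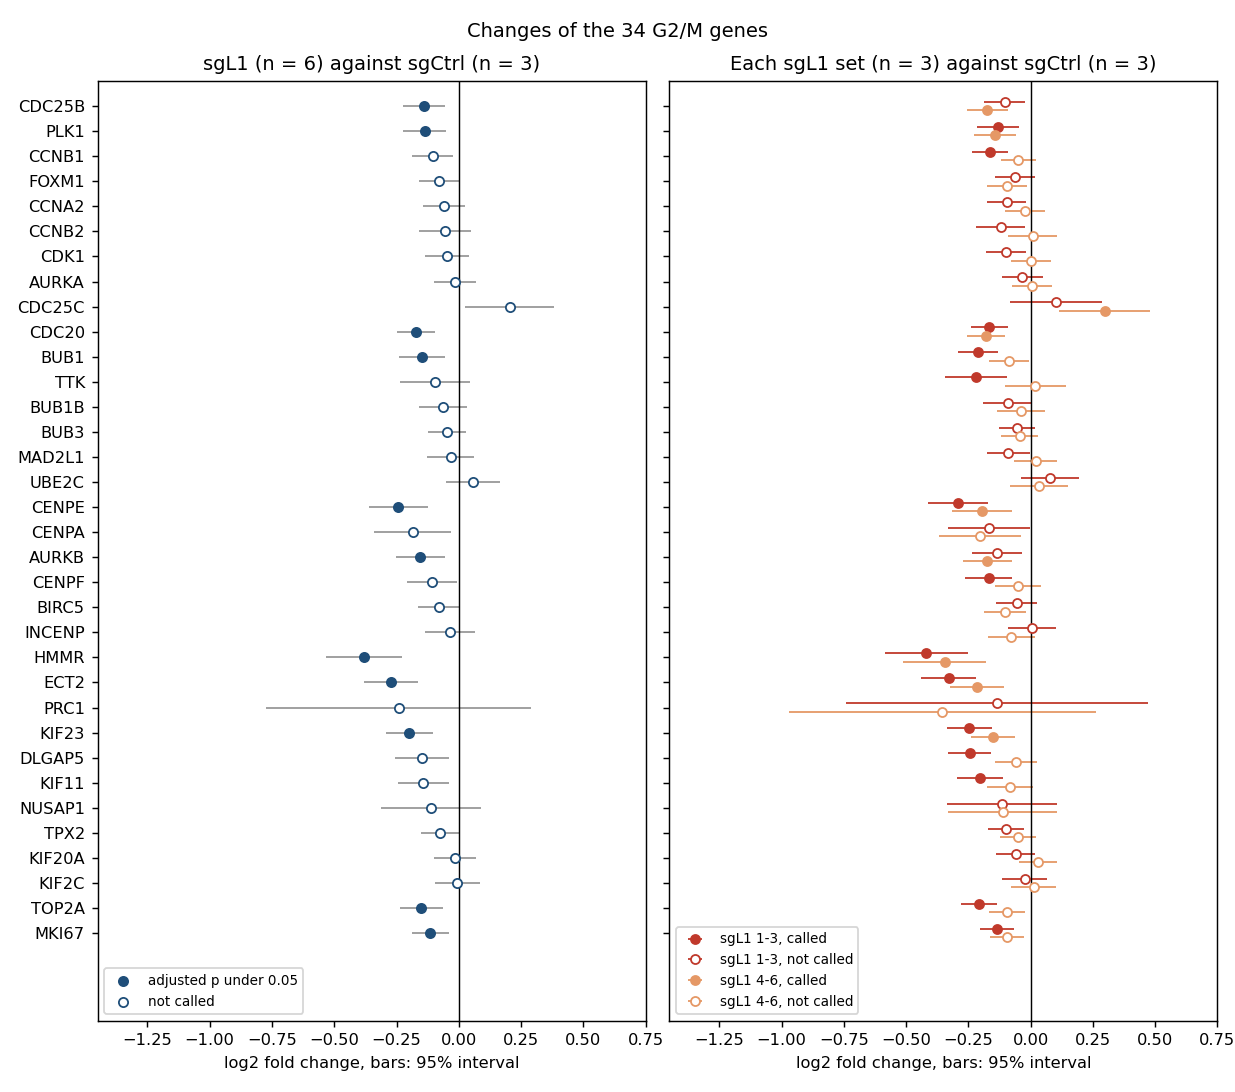
Log2 fold change of each G2/M gene against sgCtrl (points, with bars for the 95% interval), pooled over 6 sgL1 libraries at left and for sgL1 1-3 and sgL1 4-6 apart at right, with filled points where the edgeR adjusted p is under 0.05. The genes lie mostly left of zero; HMMR, ECT2, CENPE and KIF23 lie farthest left among those with narrow intervals, and CDC25C is filled to the right of zero in sgL1 4-6.

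The direct comparison of sgL1 1-3 with sgL1 4-6 tested where the sets differ. Of the 34 genes, 3 passed, all lower in sgL1 1-3, where 5.69% of all tested genes passed in either direction with 2.79% lower and 2.89% higher. DESeq2 gave 4, all lower. Where 3202 of all 15242 genes had an unadjusted edgeR p under 0.05 in either direction, 14 of the 34 were lower and 0 higher. TTK differed by -0.24 ± 0.06 (log2, SE, edgeR adjusted p = 0.0173), DLGAP5 by -0.19 ± 0.04 (SE, adjusted p = 0.00685) and CCNB1 by -0.11 ± 0.04 (SE, adjusted p = 0.0463). In each, all 3 libraries of sgL1 1-3 were below all 3 of sgL1 4-6. The count rested on single libraries: 0 genes passed in the absence of sgL1 3 or of sgL1 4, 1 in the absence of sgL1 2 or of sgL1 6, and 6 in the absence of sgL1 1 or of sgL1 5. The calls over all tested genes moved as well. In these fits, in that order, 1.04%, 0.425%, 0.726%, 0.913%, 4.40% and 3.43% of all genes were lower in sgL1 1-3. The shares higher were 1.23%, 0.585%, 0.861%, 1.23%, 4.36% and 2.93%. The CCNB1 call held without sgL1 1 and was lost without each of the other 8 libraries (0.0514 to 0.168), and it was also lost with upper-quartile scaling (0.0615), with library size alone (0.0675), with no expression filter (0.112) and in a fit of the 6 sgL1 libraries alone (0.0773). That of TTK was lost without sgL1 2, 3, 4 or 6 (0.0727 to 0.114), and that of DLGAP5 without sgL1 3 or 4 (0.0579 and 0.0673). HMMR, CDC20, PLK1 and ECT2 gave differences between the sets of -0.07 ± 0.08, 0.01 ± 0.04, 0.01 ± 0.04 and -0.11 ± 0.05 (SE), with adjusted p of 0.672, 0.887, 0.903 and 0.223. UFL1 RNA and the summed mitochondrially encoded mRNAs were also lower in the same set, 1-3, and their part in these differences was not tested.

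Other genes of the same pathway, taken from lists of kinetochore, cohesion and condensation, spindle and cytokinesis, entry and exit, and anaphase-promoting complex genes, also had a median below zero. Of 119 tested genes outside the 34, 11 fell and 0 rose in the pooled comparison. Of all tested genes, 3.98% fell and 5.52% rose. Where 3272 of all 15242 genes had an unadjusted edgeR p under 0.05 in either direction, 31 of the 119 were lower and 2 higher. DESeq2 called 13 lower and limma-voom 10, and both called 0 higher. Their median log2 fold change was -0.07, and 92 of 119 values were below zero. In sgL1 1-3, 38 fell and 2 rose (median -0.09), where 6.92% of all genes fell and 8.39% rose. In sgL1 4-6, 9 fell and 1 rose (median -0.05). The count that fell is nearer to the 4.68% of all genes that fell, and 5.92% of all genes rose. Between the sets, 17 were lower in sgL1 1-3 and 4 higher, where 2.79% of all genes were lower and 2.89% higher. The pooled count was 1 without sgCtrl 3, 3 without sgCtrl 2, 5 without sgCtrl 1, 6 without sgL1 1 and 20 without sgL1 4, and 1 on the log2(FPKM + 1) scale. Of all genes in these fits, 2.47%, 2.27%, 2.57%, 3.41%, 5.29% and 0.961% fell, in that order. The last fit had no filter on low counts and covered 30997 genes. In sgL1 4-6 the count was 5 without sgCtrl 2 and 4 without sgCtrl 3, where 3.50% and 3.59% of all genes fell.

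By list in the pooled comparison, 5 of 25 other spindle and cytokinesis genes fell, where 3.98% of all tested genes fell. These include partners of the genes above. FAM83D, which places a kinase on the spindle, went from 114.1 ± 2.25 CPM (SD, n = 3) in sgCtrl to 97.3 ± 2.23 CPM (SD, n = 6) in sgL1 (log2 fold change -0.23, edgeR adjusted p = 0.000541). PSRC1, a spindle microtubule protein, fell by 0.30 (adjusted p = 0.0047), CIT, the citron kinase of the midbody, by 0.18 (adjusted p = 0.014) and RACGAP1, the partner of KIF23 in centralspindlin, by 0.16 (adjusted p = 0.0219). Of 23 cohesion and condensation genes 4 fell: the condensin subunit SMC4 (-0.18, adjusted p = 0.00993), separase, ESPL1 (-0.16, adjusted p = 0.0299), CDCA8 (-0.15, adjusted p = 0.0436), which is borealin of the passenger complex, and SGO2 (-0.18, adjusted p = 0.0487), which protects centromeric cohesion. KNL1 (-0.23, adjusted p = 0.0457), the scaffold to which BUB1 binds, was the only pooled call among 34 other kinetochore and centromere genes, and CDCA3 (-0.18, adjusted p = 0.0354) the only pooled call among 22 entry and exit regulators. The pooled counts of these kinetochore genes and regulators are near the 3.98% of all tested genes that fell. In sgL1 1-3, 8 of these kinetochore genes fell and 0 rose, and 7 of these regulators fell and 1 rose. Of all tested genes, 6.92% fell and 8.39% rose in that set. Of 15 core subunits of the anaphase-promoting complex, 0 passed pooled in either direction by edgeR, DESeq2 or limma-voom, and at an unadjusted edgeR p under 0.05, 0 were lower and 1 was higher; 1 fell in sgL1 1-3. FAM83D alone of these 10 genes kept its call without any single library. The call was lost for PSRC1 without sgCtrl 3 (0.0562), for CIT without sgCtrl 2 or 3 (0.0764 to 0.11), for SMC4 likewise (0.0607 to 0.0948), for RACGAP1 without sgL1 1 or any 1 control (0.0523 to 0.123), and for CDCA8 without sgL1 5, sgL1 6, sgCtrl 1 or sgCtrl 3 (0.0648 to 0.315). It was lost without any 1 control and without sgL1 1 or 5 for ESPL1 (0.061 to 0.114), sgL1 1 or 3 for KNL1 (0.0516 to 0.187), sgL1 1 or 6 for CDCA3 (0.0695 to 0.185) and sgL1 1, 2, 3 or 5 for SGO2 (0.0658 to 0.215).

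Genes of the preceding phase, G1/S, had a median near zero. Of 34 tested G1/S and DNA replication genes, 0 fell and 2 rose in the pooled comparison: RRM2, a subunit of ribonucleotide reductase (0.20, edgeR adjusted p = 0.00125), and CDT1, which licenses replication origins (0.18, adjusted p = 0.0272). That count is near the 5.52% of all tested genes that rose, and the median of the 34 was 0.01. Where 3272 of all 15242 genes had an unadjusted edgeR p under 0.05 in either direction, 1 of the 34 was lower and 5 were higher. DESeq2 and limma-voom also called 0 lower and 2 higher. In sgL1 1-3, 4 of the 34 fell and 5 rose, where 6.92% of all genes fell and 8.39% rose. In sgL1 4-6, 0 fell and 2 rose, where 4.68% of all genes fell and 5.92% rose. Between the sets, 4 were lower in sgL1 1-3 and 1 higher, where 2.79% of all genes were lower and 2.89% higher. CDT1 lost its call without sgL1 3, sgL1 5, sgCtrl 2 or sgCtrl 3 (0.051 to 0.193). Of 18 tested genes of the MuvB, DREAM and E2F regulators, 1 fell and 1 rose pooled. These counts are near the 3.98% of all tested genes that fell and the 5.52% that rose. TFDP1, a dimer partner of E2F factors, fell (-0.15, edgeR adjusted p = 0.00459). MYBL2, the B-MYB protein of the activating MuvB complex, rose (0.15, edgeR adjusted p = 0.0277). The MYBL2 call was lost without sgL1 6, sgCtrl 2 or sgCtrl 3 (0.053 to 0.262). The difference between the G2/M and G1/S genes was not tested.

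**Figure D5:**
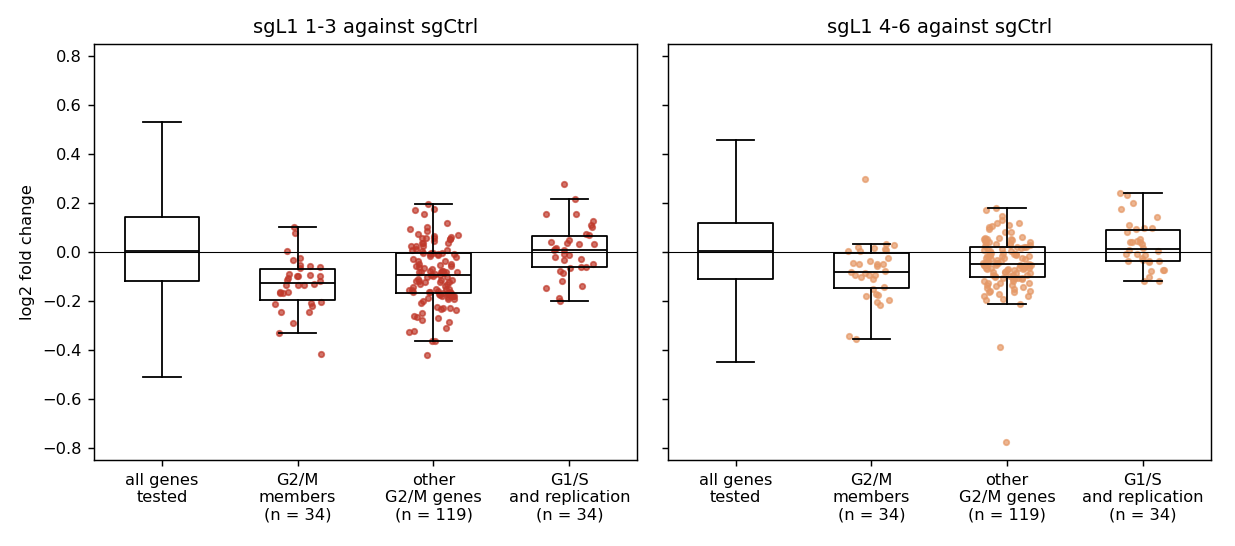
Log2 fold change against sgCtrl in sgL1 1-3 (left) and sgL1 4-6 (right) for all tested genes, the 34 G2/M genes, the 119 other G2/M genes and the 34 G1/S genes, as boxes (median, quartiles, whiskers to the last value within 1.5 box lengths) with 1 point per gene for the lists. The median of the 34 genes is -0.13 at left and -0.08 at right, and that of the G1/S genes is 0.01 in both.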

How the data were processed

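RNA sequencing of 9 MDA-MB-231 libraries was analysed. Reads were processed with fastp 0.20.1, STAR 2.7.7a and featureCounts 2.0.0 on GRCh38, per the submitters' processing notes. The authors deposited a table of raw counts per gene and a table of FPKM, which equal the counts scaled by 1 factor per gene and library. Rows without a symbol (627 of 59362, 0.358% to 0.410% of counts) stayed out. Counts on named genes were 15420073 to 17038409 per library, and 3 counts correspond to 0.177 to 0.195 CPM. This floor covers counting error only. The 95% intervals of log2 fold changes come from the edgeR fits and include the spread between libraries.

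Counts were tested with edgeR 4.0.16 (filterByExpr, TMM scaling, robust quasi-likelihood F test) in R 4.3.3, with Benjamini-Hochberg adjustment over 15242 genes and a threshold of 0.05. The pooled comparison used a fit with 2 groups; comparisons of the sets used a fit with 3 groups over all 9 libraries. Alternatives were DESeq2 1.42.0, limma 3.58.1 on voom weights or on log2 FPKM with a pseudocount of 1 or 0.1, other scalings and filters, leaving out each library, and the library number as a block. Analysis steps were tested on simulated data. Library numbers shared by sgL1 and sgCtrl showed no shared deviations (correlations of 0.003, -0.067 and -0.018) and were not used as pairs.

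The genes, gene lists and tests were chosen with earlier results of these data known. Every one of the 34 genes is described by role; of each other list, up to 4 genes with the smallest pooled adjusted p under 0.05 are named. Gene positions and shared exons come from GENCODE 29, and promoters from RefSeq.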

Additional observations from a re-analysis of the deposited data

Results flagged for a closer look

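CENPE in sgL1 4, at 107 CPM, stood apart from the other 5 sgL1 libraries at 86.4 to 92.2 CPM, with a gap to the nearest that was 0.722 of the range of the group. AURKB in sgL1 2, at 94.5 CPM, stood apart from the others at 85.4 to 87.5 CPM, with a gap of 0.769 of the range. Chance marks about 1 in 20 groups in this way, and the 34 genes were all examined.

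The change against sgCtrl differed between sgL1 1-3 and sgL1 4-6 for 3 genes, by -0.115 (log2) for CCNB1, -0.238 for TTK and -0.187 for DLGAP5, each lower in sgL1 1-3, with edgeR adjusted p of 0.0463, 0.0173 and 0.00685.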

How the results depend on the processing

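With RLE, upper-quartile or library-size scaling, DESeq2 or no expression filter, the counts of the 34 genes called in each comparison against sgCtrl stayed within 1.5 times of those reported. The same held for limma-voom and for a filter of 1 CPM in at least 3 libraries, which were run for the pooled comparison alone. At an adjusted p under 0.01, 5 of the 34 genes were lower pooled and 4 in sgL1 4-6, 0 were higher in sgL1 4-6, and 1 differed between the sets; of the other G2/M genes 3 were lower pooled, 24 in sgL1 1-3 and 3 in sgL1 4-6, and 1 G1/S gene was higher. Over all tested genes, 2.22% were lower pooled at that threshold, 3.95% in sgL1 1-3 and 2.80% in sgL1 4-6. On log2(FPKM + 1) or log2(FPKM + 0.1), 3 of the 34 and 1 of the other G2/M genes were lower. With a mean FPKM of at least 1, which left 33 of the 34 genes in the fit, these were 7 and 4. Of all genes, 0.961%, 0.887% and 3.57% were lower in these fits, in that order, over 30997, 30997 and 11940 genes. All 3 FPKM fits left 1 G1/S gene higher. With the library set in the fit, 20 other G2/M genes were lower and 5 G1/S genes higher, and 14 of the 34 were lower. In that fit 6.45% of all tested genes were lower and 7.85% higher. The cause of these moves was not tested.

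With 1 library left out, 4 to 15 of the 34 genes were lower pooled, 11 to 16 in sgL1 1-3 and 4 to 9 in sgL1 4-6, 0 to 1 were higher in sgL1 4-6, and 0 to 6 differed between the sets. Over all tested genes, 352 to 800 were lower pooled, 692 to 1182 in sgL1 1-3 and 526 to 770 in sgL1 4-6. Between the sets 157 to 1364 of all genes differed. Of the other G2/M genes, 1 to 20 were lower pooled, 27 to 42 in sgL1 1-3 and 4 to 10 in sgL1 4-6, and 1 to 3 G1/S genes were higher. Of the genes not called pooled, AURKA ranged from -0.028 to 4.08e-05, UBE2C from -0.012 to 0.107, KIF20A from -0.030 to 0.00257, KIF2C from -0.026 to 0.017 and PRC1 from -0.41 to 0.013. Among genes not called, 3 of 20 in sgL1 1-3, 7 of 25 in sgL1 4-6 and 6 of 31 between the sets changed sign in some setting.

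The replicate block cannot be set beside the pooled comparison: numbers 4-6 occur in sgL1 alone, so a block on the number in the fit of 9 libraries compares sgL1 1-3 with sgCtrl. That fit gave 13 of the 34 and 33 of the other G2/M genes lower, and 0.00542 for INCENP, whose value in sgL1 1-3 without the block was 0.01 and pooled -0.04. In a fit of sgL1 1-3 and sgCtrl alone, the block gave 13 of the 34 and 34 of the other G2/M genes lower, against 14 and 37 in the same fit without it. The numbers do not pair the libraries. Depth limits PRC1, at 19 to 41 counts per library, more than any other of the 34 genes.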
